A study of Rattus norvegicus with 415 samples.

Results

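The 6 genes described here carry the insulin signal from the cell surface to glucose uptake: *Insr* (ENSRNOG00000029986), *Irs1* (ENSRNOG00000014597), *Pik3r1* (ENSRNOG00000018903), *Akt2* (ENSRNOG00000018677), *Foxo1* (ENSRNOG00000013397) and *Slc2a4* (ENSRNOG00000017226). They were chosen by Ensembl identifier, and all 6 were found among the 18358 genes of the deposited table. RNA sequencing was done on adipose tissue from outbred rats at 17 weeks of age, in a study that mapped metabolic traits to the genome. All samples carry the same labels of tissue and age and none names a treatment, which leaves no study groups to compare. The labels used here give neither a sex nor a fat depot, and do not say that each sample is a separate animal, so p-values measure the spread between these samples. Each title holds a number, of which 89 stand on more than 1 sample, and gaps above 500 in these numbers set apart 3 blocks with 9.40%, 55.9% and 34.7% of samples, used as possible batches. Leptin (*Lep*), which was to be set beside these genes, is not analysed here.

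Insulin binds its receptor, a tyrosine kinase encoded by *Insr*, which phosphorylates docking proteins such as IRS1, the product of *Irs1*. These recruit PI3K, a lipid kinase whose main regulatory subunit is encoded by *Pik3r1*, and the lipid made at the membrane leads to activation of the kinase AKT2. In fat cells AKT2 sends vesicles with the glucose transporter GLUT4, the product of *Slc2a4*, to the surface. AKT2 also phosphorylates the transcription factor FOXO1 and keeps it out of the nucleus, and FOXO1 is known to raise transcription of *Insr* in several tissues when insulin is low. The steps are carried by proteins and phosphorylation, which RNA levels do not measure.

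The promoters of the receptor gene, for its FOXO motif, and of the pair with the highest correlation of RNA levels are shown first. They come from RefSeq on the rat build GRCr8, in which 5 of the 6 genes were matched by symbol, and run from 250 bases before to 50 after the annotated start, 5′ to 3′ on the gene's strand. Capitals mark exact matches, on either strand, of the FOXO motif TGTTTAC, the GC box GGGCGG, the E-box CACGTG, the CCAAT box CCAAT and the TATA box TATAAA. The *Insr* promoter lies at chr12:6128754-6129053 on the minus strand, *Pik3r1* at chr2:34697611-34697910 on the minus strand and *Foxo1* at chr2:138462724-138463023 on the plus strand.
Insr: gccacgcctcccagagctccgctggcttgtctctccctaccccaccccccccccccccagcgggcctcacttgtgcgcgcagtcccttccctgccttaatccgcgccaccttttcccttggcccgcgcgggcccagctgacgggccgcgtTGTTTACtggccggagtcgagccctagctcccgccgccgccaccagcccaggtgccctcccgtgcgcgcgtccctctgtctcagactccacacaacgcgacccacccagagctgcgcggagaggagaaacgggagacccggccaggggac
Pik3r1: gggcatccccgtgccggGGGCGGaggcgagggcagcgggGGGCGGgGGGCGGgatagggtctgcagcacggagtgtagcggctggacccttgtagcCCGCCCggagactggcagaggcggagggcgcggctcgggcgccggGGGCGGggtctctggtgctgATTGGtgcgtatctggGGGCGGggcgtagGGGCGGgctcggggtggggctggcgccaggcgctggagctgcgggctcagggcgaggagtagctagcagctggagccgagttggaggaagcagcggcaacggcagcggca
Foxo1: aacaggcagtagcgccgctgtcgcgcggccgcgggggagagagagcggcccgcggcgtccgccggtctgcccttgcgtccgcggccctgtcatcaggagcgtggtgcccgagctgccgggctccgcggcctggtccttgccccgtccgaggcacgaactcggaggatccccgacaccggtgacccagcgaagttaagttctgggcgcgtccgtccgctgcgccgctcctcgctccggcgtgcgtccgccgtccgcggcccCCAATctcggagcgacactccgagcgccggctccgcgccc
The *Insr* window held 1 match of TGTTTAC, starting at position -100 from the start, a motif found in 3.78% of 33469 promoters of the same length. That was the only FOXO match among the 5 promoters. The *Pik3r1* window held 7 matches of GGGCGG and 1 of CCAAT on the reverse strand, and the *Foxo1* window held 1 CCAAT, starting 11 bases into the transcript. *Irs1* (not printed) had 3 GC boxes, and *Akt2* had 1 TATA box on the reverse strand and no GC box. GGGCGG was found in 33.1% of all promoters, CCAAT in 37.5% and TATAAA in 14.2%. Promoters of *Insr*, *Irs1*, *Pik3r1* and *Foxo1* had 71.3%, 70.3%, 75.3% and 75.0% G and C, against a median of 51.7% over all promoters, and *Akt2* had 49.7%. These matches describe letters, not binding.

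Levels are FPKM, which scale the reads of a gene by its length and by the depth of the sample and let genes be compared per length. The median number of reads was highest for *Pik3r1* (1450) and *Insr* (1297), and *Foxo1* had the fewest. Their mean levels stood at the 77.9th (*Foxo1*) to the 98.05th (*Akt2*) percentile of the 16131 genes tested, which had FPKM above 1 in at least 20% of samples. In bulk tissue, fewer cells of a type and less RNA per cell cannot be told apart.

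*Insr* had a lowest level of 20.9 FPKM, a median of 39.95 and a highest of 55.98, with a mean of 39.7 ± 4.88 (SD over all samples). *Irs1* ran from 13.1 through a median of 37.9 to 57.1 FPKM, with a mean of 37.8 ± 7.08 (SD over all samples). Both had a tail of low samples and none of comparable length on the high side, with a skewness of log2 levels of -1.15 and -0.99. The lowest *Irs1* sample, of block 1, was also the lowest in *Pik3r1*.

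*Pik3r1*, the regulatory subunit, ran from 51.2 through 75.2 to 100.8 FPKM, with a mean of 75.3 ± 8.39 (SD over all samples). *Akt2* ran from 75.6 through 106.3 to 132.6 FPKM, with a mean of 106.7 ± 8.86 (SD over all samples). *Akt2* was thus both the most abundant in FPKM and the steadiest of the 6, with a coefficient of variation of 8.30%. Only 9.08% of the genes tested had a smaller SD of log2 levels. Reads of *Akt2* grew less than in proportion to depth (below), and the part of this in its level and spread was not tested.

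*Foxo1* ran from 18.4 through 34.9 to 65.5 FPKM, with a mean of 35.8 ± 7.55 (SD over all samples). *Slc2a4* ran from 31.7 through 61.2 to 124.98 FPKM, with a mean of 62.5 ± 12.4 (SD over all samples). These 2 genes, the nuclear and the transport end of the pathway, had coefficients of variation of 21.1% and 19.9%, close to that of *Irs1* (18.7%). The SDs of log2 levels were 0.28 for *Irs1*, 0.29 for *Foxo1* and 0.28 for *Slc2a4*, against 0.24 for the median gene tested, 0.18 for *Insr*, 0.16 for *Pik3r1* and 0.12 for *Akt2*. The variance between samples was 6.56 (*Akt2*) to 32.2 (*Irs1*) times the counting variance, against a median ratio of 4.54 over 13704 genes. For the same relative spread this ratio grows with the reads of a gene. It therefore does not show that these genes vary more than others.

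**Figure D1:**
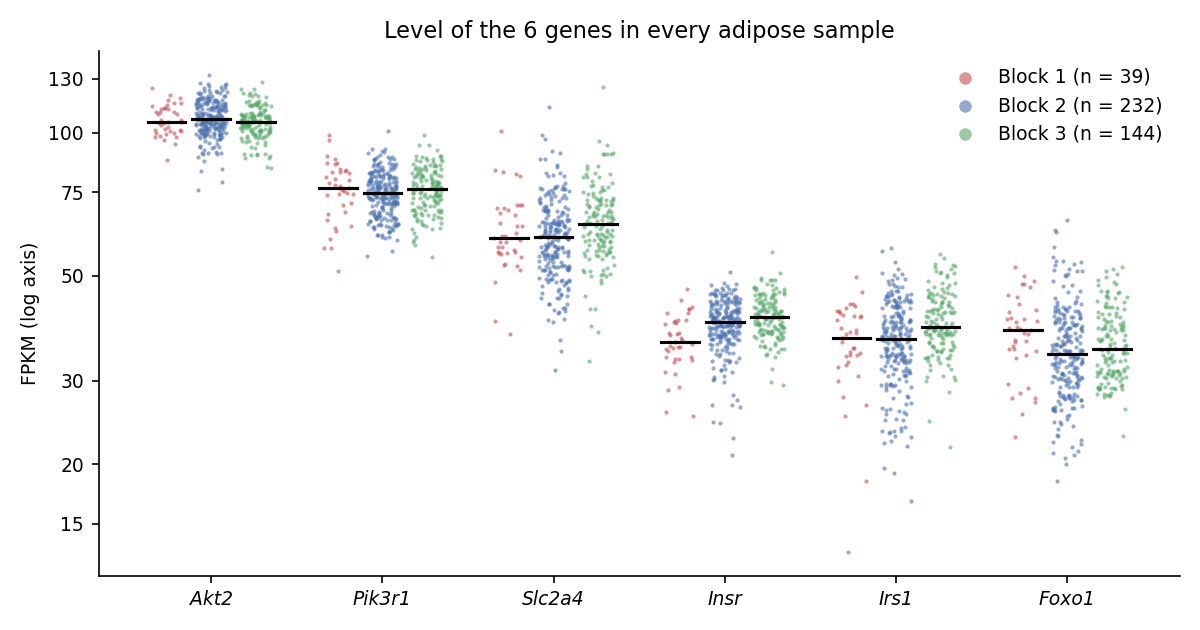
FPKM (log axis) of the 6 genes, ordered by mean, in every sample. Each point is 1 sample, colours are the 3 blocks of title numbers and black bars are block medians. *Akt2* lies between 75.6 and 132.6 FPKM and *Irs1* between 13.1 and 57.1, with low tails in *Irs1* and *Insr*.

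Some libraries held low values of several genes. How often this happens for other sets of genes was not computed, so the overlap is a description. Among the 10 highest samples for each gene, each shared sample was shared by 2 genes. Of the 10 lowest samples for each gene, 9 samples stood among them for more than 1 gene, 5 with fewer than 3500000 reads and 4 with more. In 3 of the former *Insr*, *Irs1* and *Pik3r1* were low together, at 2617924, 3035522 and 2139163 reads. Of the latter, a sample of block 3 with 4927703 reads was low in *Irs1*, *Pik3r1* and *Slc2a4*, and a sample of block 2 with 4846807 reads was low in *Insr* and *Irs1*. Another of the 4, of block 2 with 4255907 reads, was chosen for its values after they were seen. It had the lowest *Slc2a4* (31.7 FPKM) with low *Insr* (24.5) and low *Akt2* (78.6), while its *Foxo1* stood at 61.9 FPKM, near the top of that gene's range.

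The order of levels was stable at the top and loose at the bottom. *Akt2* exceeded *Pik3r1* in 99.76% of samples, all but 1, with a median ratio of 1.41, and exceeded *Insr*, *Irs1* and *Foxo1* in every sample. *Pik3r1* exceeded *Slc2a4* in 80.5% of samples, and *Slc2a4* exceeded *Insr* in 97.8%. *Insr*, *Irs1* and *Foxo1* lay closer together and changed order between samples. *Insr* was above *Irs1* in 61.7% of samples and above *Foxo1* in 73.7%, and *Irs1* was above *Foxo1* in 62.7%. The mean log2 differences in these last comparisons were 0.09, 0.16 and 0.08, with SDs over samples of 0.24, 0.32 and 0.40.

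A set of 12 libraries had fewer than 3500000 reads in genes and held many of the low values of *Insr* and *Irs1*. Over all samples the reads ranged from 2139163 to 6248214 with a median of 4602134. The 12 shallow libraries (3 in block 1, 9 in block 2) held 9 of the 20 lowest *Insr* values and 6 of the 20 lowest *Irs1* values. All 12 had title numbers of at most 61163, but some deeper libraries had such numbers too. Among samples of number 60444, *Insr* was 37.19 FPKM at 4139407 reads, 26.71 at 3201606 and 22.76 at 2139163. *Irs1* was 36.08, 29.39 and 22.86 in the same order. Among those of number 58096, *Insr* was 35.29 and *Irs1* 34.02 FPKM at 4879251 reads, against 25.26 and 13.08 at 3035522. The separate parts of depth and title number in the low values were not tested. The median *Insr* level of the 12 shallow libraries was 27.02 FPKM against 40.1 in the other samples, and their median *Irs1* level was 24.2 against 38.04. For *Foxo1* and *Slc2a4*, 0 of the 20 lowest values were in these libraries, whose medians were 37.9 and 62.96 FPKM against 34.8 and 61.1. The lowest *Insr* sample of all had 4846807 reads and was not shallow. *Insr* and *Irs1* were described better by 2 normal components than by 1, with the smaller holding 5.11% and 7.98% of samples. That definition (a gain in BIC above 10, means more than 3 SDs apart and a smaller component of 5% or more) was met by 11.6% of the genes tested. Without the 12 shallow libraries neither gene met it, though a gain in BIC remained for both. *Insr* then had a gain of 20.03 and a separation of 3.196 SDs (3.58 with all samples), with 3.33% of samples in the smaller component. *Irs1* had a gain of 19.8 and a separation of 2.85 SDs (3.08 with all samples), with 6.97%. The other 4 genes did not meet the definition with or without these libraries.

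Levels of 4 of the 6 genes changed with the reads per sample (limma slope on log2 reads, adjusted p under 0.05), as did 70% of the genes tested (41.7% upward and 28.3% downward). Of the 4, *Insr* and *Irs1* rose and *Akt2* and *Slc2a4* fell. *Akt2* fell by 0.20 on the log2 scale for each doubling of reads (SE 0.03, limma adjusted p = 8.412e-11). Its Pearson r with log2 reads was -0.322 and its Spearman rho -0.524 (two-sided permutation p = 1e-05 for both, the smallest the 100000 permutations can give), and leaving out the 2 samples of most extreme depth gave r = -0.444. The direction was the same within blocks 1, 2 and 3, with r of -0.337, -0.169 and -0.643, and without the libraries under 3500000 reads the slope was -0.46 (limma adjusted p = 9.275e-36). *Slc2a4* fell by 0.20 (SE 0.07, limma adjusted p = 0.00876; r = -0.136, permutation p = 0.00537; rho = -0.137, p = 0.0048), with r of -0.128 without the 2 farthest samples and of -0.156, -0.142 and -0.247 within the blocks.

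*Insr* rose by 0.27 per doubling (SE 0.05, limma adjusted p = 2.161e-08; r = 0.280, permutation p = 1e-05) and *Irs1* by 0.31 (SE 0.07, limma adjusted p = 4.624e-05; r = 0.207, permutation p = 4e-05). These 2 slopes rested on the shallow libraries: without them they were -0.01 and -0.09, with adjusted p of 0.902 and 0.379. The ranks showed no such relation in all samples (rho = 0.0628, p = 0.2001 for *Insr*; rho = -0.00381, p = 0.938 for *Irs1*). Without the 2 farthest samples, r was 0.217 and 0.159. Within blocks 1, 2 and 3, r was 0.405, 0.320 and -0.0575 for *Insr*, and 0.577, 0.209 and -0.182 for *Irs1*.

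Adjusted over the family, the permutation p of r was 2.6e-05 for *Insr* and *Akt2*, 9.33e-05 for *Irs1* and 0.00867 for *Slc2a4*. For *Pik3r1*, r was -0.0764 (p = 0.120; rho = -0.208, p = 2e-05), and its slope of -0.06 did not pass (limma adjusted p = 0.156). Without the shallow libraries that slope was -0.29 (adjusted p = 2.179e-07). *Foxo1* showed no detectable relation (r = -0.0170, permutation p = 0.733; limma adjusted p = 0.771). Without the 2 farthest samples, r was -0.142 for *Pik3r1* and -0.0255 for *Foxo1*, and within the blocks it ran from -0.245 to 0.169 and from -0.0855 to 0.131. The direction for *Akt2* depended on the scaling. After quantile normalization its slope was 0.29 (limma adjusted p = 1.178e-22). The slope was then 0.27 for *Pik3r1* (adjusted p = 6.617e-10), and 0.09 for *Slc2a4*, which did not pass (adjusted p = 0.286).

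The density of reads on the transcript differed between the genes. *Akt2* had a median of 0.497 reads per bp of its 1984 bp, *Pik3r1* 0.349, *Slc2a4* 0.283, *Insr* 0.186, *Irs1* 0.176 and *Foxo1* 0.160. Reads of *Akt2* grew with a slope of 0.804 (95% interval 0.751 to 0.857) per unit of the log2 depth factor, where 1 means growth in proportion. The slope was 0.778 for *Slc2a4* and 0.920 for *Pik3r1*. It was 1.22 for *Insr*, 1.252 for *Irs1* and 0.942 for *Foxo1*. Among genes within 10% of the density of *Akt2*, the median slope was 0.555. The part of depth in the differences of *Akt2* between samples was not tested, and correlations are given below also with reads removed.

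**Figure D2:**
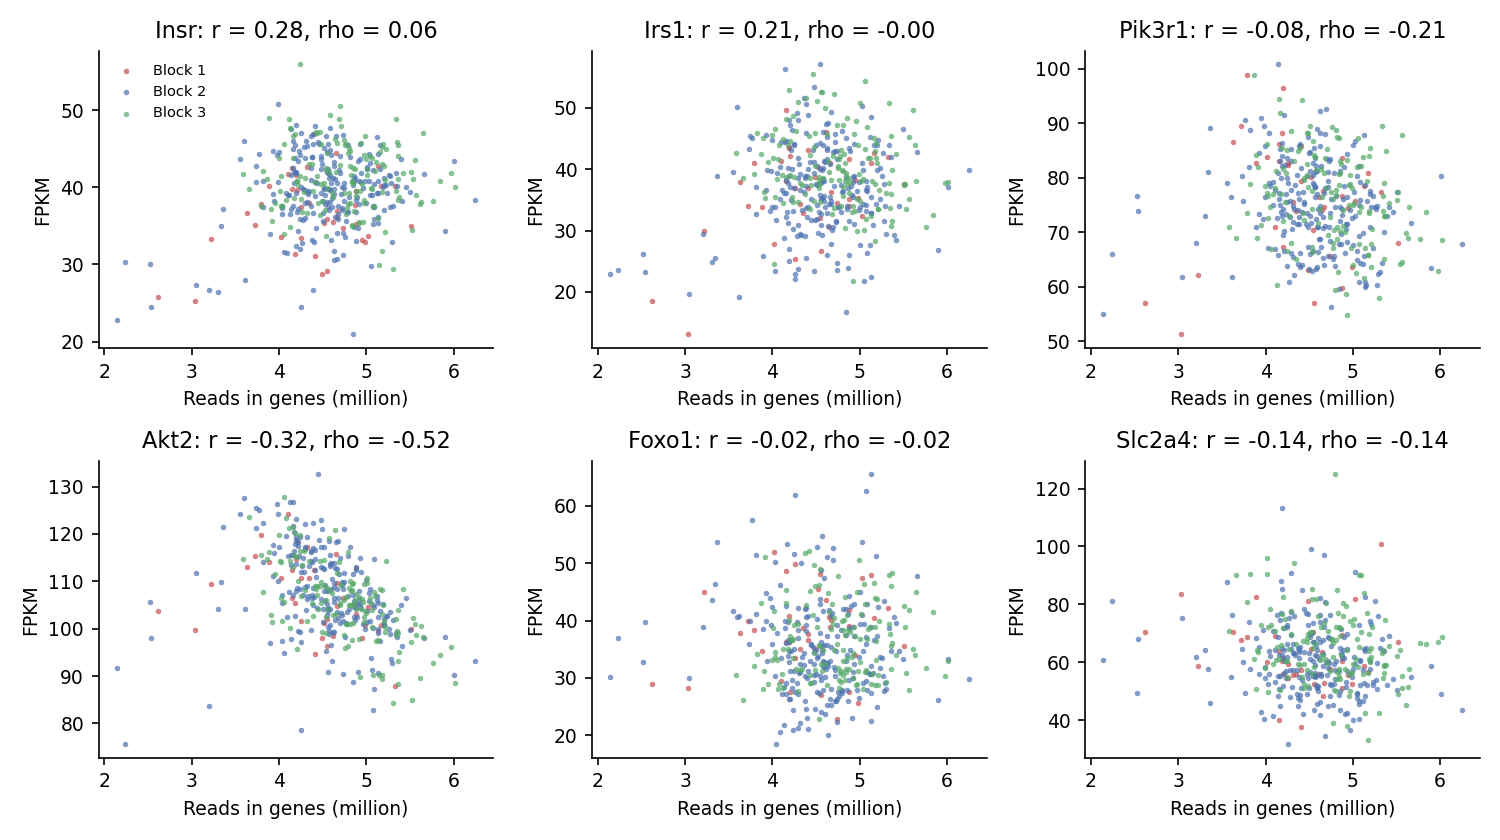
FPKM of each gene against the reads in genes of the sample on a linear axis. Each point is 1 sample, coloured by block, with Pearson's r and Spearman's rho of log2(FPKM + 1) and log2 reads above each panel. *Akt2* falls with reads, while low *Insr* and *Irs1* values gather at the left, below 3500000 reads.

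Co-variation asked whether samples with more RNA of one step also had more of the next. All correlations were on log2(FPKM + 1) over all samples. They formed 1 family of 21 relations with those to reads. A pair was called where the limma slopes of each gene on the other passed an adjusted p of 0.05 over all genes tested. Of the 15 pairs, 9 were called, all of them positive. Their permutation p adjusted over the family was at most 0.000805 for r and 0.0136 for rho, and that of the other 6 pairs was at least 0.0809 and 0.204. That count is read against a wide background, since 72.4% of the other genes were called with *Insr*, 67.3% with *Irs1*, 42.6% with *Pik3r1*, 60.8% with *Akt2*, 39% with *Foxo1* and 51.7% with *Slc2a4*. In the same order, 34.4%, 32.6%, 18.5%, 25.2%, 19.8% and 23.3% were called with a positive slope. A negative slope was called for 37.9%, 34.6%, 24.1%, 35.7%, 19.2% and 28.4%.

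*Pik3r1* and *Foxo1* had the highest coefficient of the 15 pairs. Pearson's r was 0.532 (95% interval 0.460 to 0.598) and Spearman's rho 0.554, both with a permutation p of 1e-05 (adjusted 2.6e-05), and the limma adjusted p was 6.055e-29. *Foxo1* ranked 24 by r with *Pik3r1* among 16130 genes, and *Pik3r1* ranked 31 by r with *Foxo1*. Within blocks 1, 2 and 3, r was 0.550, 0.501 and 0.614. The coefficient was 0.533 after removal of log2 reads, 0.578 after removal of 5 principal components and 0.326 among samples of the same title number. Without the 2 farthest samples it was 0.532. For every log2 unit of *Pik3r1*, *Foxo1* rose by 0.97 (SE 0.08).

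*Insr* and *Irs1*, receptor and docking protein, had nearly the same r, 0.527 (95% interval 0.453 to 0.593; permutation p = 1e-05; limma adjusted p = 4.416e-29). Their rho was 0.378 (p = 1e-05), and r was 0.427 without the 12 shallow libraries and 0.494 without the 2 farthest samples. *Irs1* ranked 484 among 16130 genes by r with *Insr*, and the r of *Insr* exceeded in size that of 98.6% of genes with *Irs1*. Within blocks 1, 2 and 3, r was 0.660, 0.573 and 0.227, and in block 3 the pair did not pass (limma adjusted p = 0.0697). The slope of *Irs1* on *Insr* differed between the blocks (limma F test of the difference, adjusted p = 0.00151), as did the slopes of 43.9% of genes on *Insr*. With 5 principal components as covariates r was 0.128, and within title numbers it was 0.392.

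**Figure D3:**
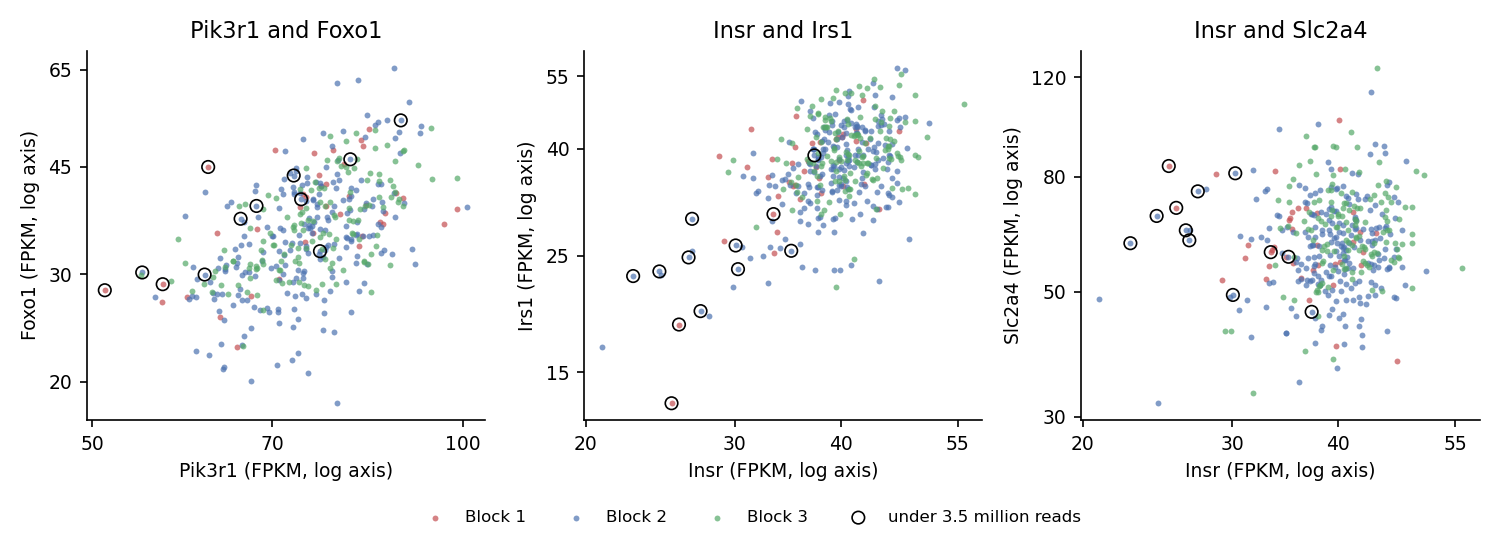
Levels of 3 pairs of genes in each sample (FPKM, log axes), coloured by block, with rings around the 12 libraries under 3500000 reads. *Pik3r1* and *Foxo1* rise together over their whole range (r = 0.532), many ringed libraries lie at the low end of *Insr* and *Irs1*, and *Insr* and *Slc2a4* form a cloud (r = 0.0948).

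*Insr* was also called with *Akt2* (r = 0.413, rho = 0.364, permutation p = 1e-05 for both; limma adjusted p = 2.846e-17) and with *Pik3r1* (r = 0.381, rho = 0.349, p = 1e-05 for both; limma adjusted p = 5.658e-14). For *Insr* and *Akt2*, r was 0.553 with log2 reads removed and 0.128 with 5 principal components removed (limma adjusted p = 0.0342), and the pair did not pass within block 1 (adjusted p = 0.0989). Within blocks 1, 2 and 3, r was 0.429, 0.471 and 0.415 for *Insr* and *Akt2*, and 0.593, 0.352 and 0.381 for *Insr* and *Pik3r1*. Without the 2 farthest samples the values were 0.394 and 0.365. *Akt2* ranked 1262 and *Pik3r1* 1571 among 16130 genes by r with *Insr*, so that many other genes followed *Insr* more closely. The highest r of any gene was 0.787 with *Insr*, 0.687 with *Irs1*, 0.698 with *Pik3r1*, 0.762 with *Akt2*, 0.738 with *Foxo1* and 0.643 with *Slc2a4*.

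*Irs1* and *Pik3r1*, which meet where the docking protein binds PI3K, had r = 0.368 (rho = 0.325, permutation p = 1e-05 for both; limma adjusted p = 4.858e-13), and 0.618, 0.290 and 0.395 within the blocks. *Pik3r1* and *Akt2* had r = 0.292 (rho = 0.272, p = 1e-05 for both; limma adjusted p = 2.92e-08), and 0.336, 0.297 and 0.311 within the blocks. *Irs1* and *Akt2* had r = 0.194 (permutation p = 7e-05; rho = 0.165, p = 0.00077; limma adjusted p = 0.000183), and 0.0912, 0.223 and 0.290 within the blocks. Without the 2 farthest samples these pairs had r of 0.341, 0.281 and 0.175. *Irs1* and *Akt2* did not pass with 5 principal components as covariates (r = 0.0459, limma adjusted p = 0.506), within title numbers (adjusted p = 0.478) or within block 1 (adjusted p = 0.818). For *Pik3r1* and *Akt2*, r was 0.145 with the 5 components removed (adjusted p = 0.0120), and the pair did not pass within block 1 (adjusted p = 0.236). The median absolute r of *Akt2* with any gene was 0.142.

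*Foxo1* and *Insr* had r = 0.187 (permutation p = 0.00016; rho = 0.264, p = 1e-05; limma adjusted p = 0.000725), with r of 0.246, 0.174 and 0.258 within the blocks and 0.1999 without the 2 farthest samples. The pair did not pass within block 1 (limma adjusted p = 0.522). With 5 principal components removed r was 0.242 (limma adjusted p = 1.174e-05). Among samples of the same title number r was -0.00230, so that the relation was not detected there. *Insr*, whose promoter is printed above with its FOXO match, ranked 1693 among 16130 genes by r with *Foxo1*. *Foxo1* showed no detectable relation with *Akt2* (r = -0.0170, 95% interval -0.113 to 0.0794; limma adjusted p = 0.820) or with *Irs1* (r = 0.0544, 95% interval -0.0421 to 0.150; limma adjusted p = 0.401). The intervals leave room for weak relations in either direction.

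*Slc2a4* was called with 1 of the 5 other genes, *Akt2*. Its r was -0.0545 with *Irs1* (95% interval -0.150 to 0.0420), -0.0470 with *Pik3r1* (-0.143 to 0.0495) and 0.0219 with *Foxo1* (-0.0745 to 0.118), with limma adjusted p of 0.361, 0.458 and 0.762. With *Akt2*, r was 0.170 (permutation p = 0.00046; rho = 0.131, p = 0.00779; limma adjusted p = 0.00156). That pair had -0.207, 0.148 and 0.376 within blocks 1, 2 and 3, so that its sign in block 1 (39 samples) was the opposite, and 0.164 without the 2 farthest samples. It did not pass within block 2 (limma adjusted p = 0.0625), after quantile normalization (0.602) or with 5 principal components as covariates (0.6501). With *Insr*, r was 0.0948 (95% interval -0.00143 to 0.189; limma adjusted p = 0.0935), and -0.287, 0.0750 and 0.180 within the blocks. This pair passed in 5 alternatives: with log2 reads as a covariate (limma adjusted p = 0.0108, r = 0.140), with blocks and reads (0.0397), with 1 sample per title number (0.0307), after quantile normalization (0.00269) and without the shallow libraries (0.00857, r = 0.144). With 5 principal components as covariates its slope was -0.26 and did not pass (adjusted p = 0.0596).

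For each of the 6 genes, including *Slc2a4*, some of the many genes outside the set had a higher r than any member did. The 2 with the highest r with *Slc2a4* were ENSRNOG00000006375 (0.643, at 42.3 ± 5.02 FPKM, SD) and ENSRNOG00000003998 (0.640, at 39.3 ± 6.997 FPKM, SD). Within blocks 1, 2 and 3 their r was 0.655, 0.631 and 0.685 for the former and 0.539, 0.585 and 0.746 for the latter. The 2 with the lowest were ENSRNOG00000003703 (-0.556, at 9.97 ± 2.45 FPKM, SD) and ENSRNOG00000014336 (-0.492, at 2.79 ± 1.64 FPKM, SD). These r are descriptions over all samples, and the files do not pair these identifiers with gene names.

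**Figure D4:**
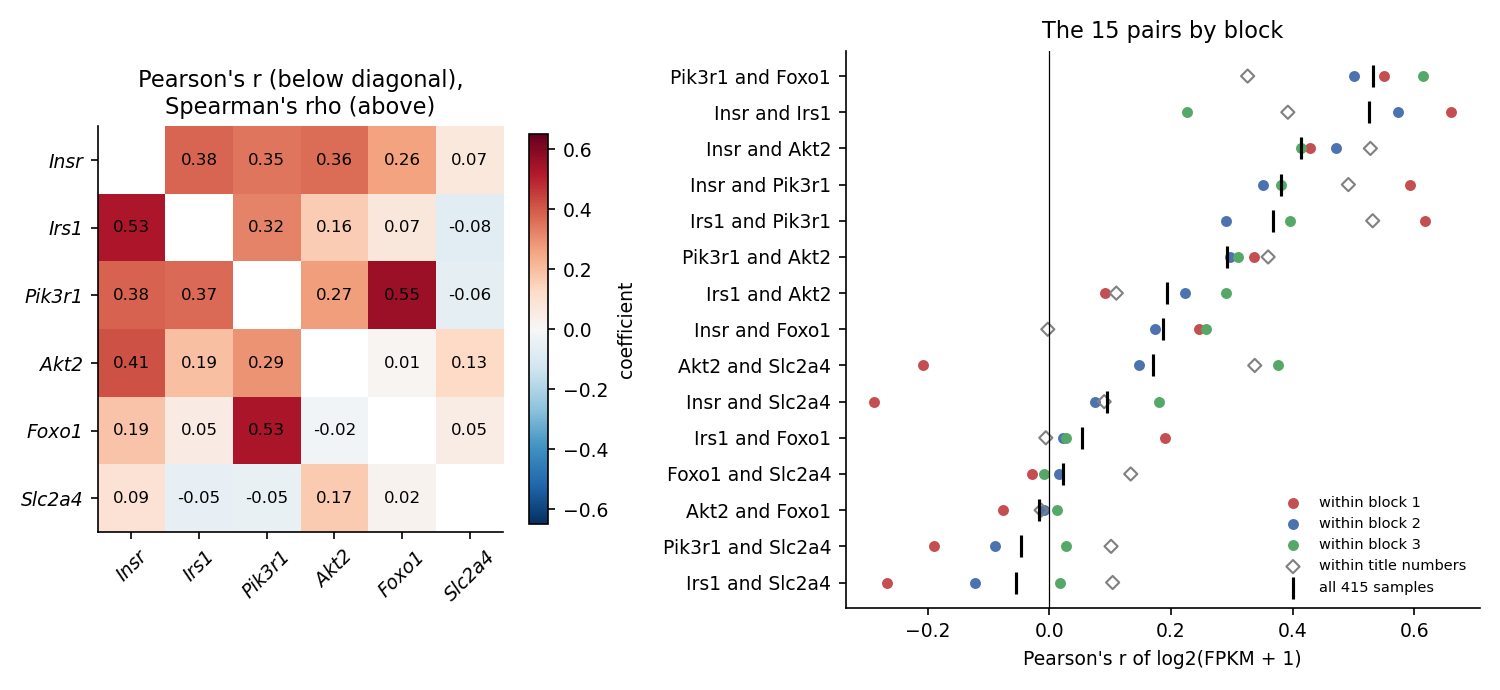
Left, Pearson's r (below the diagonal) and Spearman's rho (above) of log2(FPKM + 1) for the 15 pairs over all samples. Right, r of each pair in all samples (bars), within each block (dots) and within title numbers (diamonds): *Pik3r1* and *Foxo1* stay between 0.326 and 0.614, and pairs with *Slc2a4* run from -0.0545 to 0.170 in all samples.

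The first 5 principal components of all genes tested were set beside the 6 genes. The third, with 6.07% of the variance, had r of 0.667 with *Insr*, 0.576 with *Akt2*, 0.360 with *Irs1*, 0.266 with *Pik3r1*, 0.258 with *Slc2a4* and -0.0505 with *Foxo1*. *Foxo1* had no r above 0.184 in size with any of the 5. With these 5 components as covariates 9 pairs were called, 7 of them positive, against 32% of genes called with *Insr*, 34.1% with *Irs1*, 40.8% with *Pik3r1*, 35.9% with *Akt2*, 45.1% with *Foxo1* and 37.2% with *Slc2a4*. The negative ones were *Slc2a4* with *Pik3r1* (r = -0.217) and with *Irs1* (r = -0.182).

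The title number was the only label with many values, and the genes were tested along its rank. Of the 6 genes, 3 changed from the lowest to the highest number at an adjusted p under 0.05 in limma, against 61.3% of the genes tested. All 3 rose, as did 31% of the genes tested, while 30.2% fell. *Insr* rose by 0.22 on the log2 scale (SE 0.03, adjusted p = 1.865e-12), *Irs1* by 0.28 (SE 0.05, adjusted p = 1.278e-08) and *Slc2a4* by 0.15 (SE 0.05, adjusted p = 0.00371). The changes of *Pik3r1*, *Akt2* and *Foxo1* were -0.0039, -0.02 and -0.09, with adjusted p of 0.914, 0.421 and 0.119. With 1 sample per title number *Foxo1* fell by 0.14 (limma adjusted p = 0.0301), so that 4 genes passed, 3 rising and 1 falling, against 56.3% of the genes tested. Without the shallow libraries the 3 rises were 0.16, 0.20 and 0.17, and all passed, against 50.9% of the genes tested (25.7% rising).

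The same 3 genes differed between the blocks (limma F test, adjusted p = 1.097e-06 for *Insr*, 3.304e-05 for *Irs1* and 0.00335 for *Slc2a4*), against 53% of the genes tested. From block 1 to block 3, mean *Insr* was 36.4 ± 4.86, 39.4 ± 4.93 and 41.2 ± 4.25 FPKM (SD over the samples of the block). Mean *Irs1* was 36.2 ± 7.21, 36.6 ± 7.29 and 40.1 ± 6.10 FPKM, and mean *Slc2a4* was 62.4 ± 12.1, 60.7 ± 12.04 and 65.4 ± 12.6 FPKM, in the same order. The blocks overlapped in every gene. Differences of means were smaller than the SDs within blocks, except that *Insr* differed between blocks 1 and 3 by more than the SD of block 3. For *Foxo1* the F test just missed (adjusted p = 0.0542), at 37.9 ± 7.23, 35.2 ± 8.22 and 36.2 ± 6.32 FPKM.

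Within blocks the trend was uneven. In block 2, *Insr* rose by 0.36 and *Irs1* by 0.50 per full range of ranks of all samples (limma adjusted p = 8.793e-06 and 7.914e-05). On the same scale *Foxo1* fell by 0.57 (adjusted p = 2.35e-05). With that range set from 0 to 1, block 2 covers only 0.0943 to 0.653, so the changes inside it are smaller. *Pik3r1* fell there by 0.15 (adjusted p = 0.0264). These 4 of 6 stood against 56.6% of the genes tested in block 2. The 9 shallow libraries of this block lie at its low end (title numbers 60213 to 61163), and its trend without them was not fitted. Of the 6 genes, 0 passed in block 1 or block 3 in limma, where *Irs1* in block 1 (p = 0.0226) and *Insr* in block 3 (p = 0.0216) had an unadjusted p under 0.05. Over the genes tested, 0% passed in block 1 and 6.53% in block 3. The slope of *Irs1* differed between blocks (limma F test of the difference, adjusted p = 0.00462), and that of *Foxo1* was not shown to differ (adjusted p = 0.298), against 27.7% of genes called.

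Samples of the same title number resembled each other in all 6 genes. The F test between numbers, on the samples that share one, passed for 6 of 6 genes, against 57.5% of the genes tested (limma). Resemblance, the intraclass correlation over all pairs of samples that share a number, was 0.471 for *Insr* (limma adjusted p = 5.588e-06), 0.448 for *Pik3r1* (adjusted p = 2.833e-05) and 0.445 for *Foxo1* (adjusted p = 7.362e-06). These stood at the 92.3rd, 89.4th and 89.1st percentile of the genes tested, whose median was 0.228. It was 0.285 for *Akt2*, 0.264 for *Irs1* and 0.251 for *Slc2a4* (adjusted p = 0.0145, 0.00846 and 0.0223), at the 61.9th, 57.5th and 54.9th percentile. The difference between these genes' resemblances was not tested.

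Removal of a spline of the title number and of log2 reads left 4 of the 6 genes past the test, against 31.1% of the genes tested. Resemblance was then 0.447 for *Pik3r1*, 0.366 for *Foxo1*, 0.348 for *Akt2* and 0.313 for *Insr*, all with an adjusted p under 0.05. *Irs1* (0.142, limma adjusted p = 0.152) and *Slc2a4* (0.192, adjusted p = 0.0719) no longer passed. The median gene fell too, from 0.228 to 0.142, so that *Pik3r1*, *Foxo1*, *Akt2* and *Insr* stood at the 97.8th, 93.2nd, 91.5th and 87.2nd percentile after removal, *Slc2a4* at the 63.1st and *Irs1* at the 50.1st. The 2 samples of a pair differed in *Slc2a4* by a median of 0.22 on the log2 scale and in *Akt2* by 0.10.

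**Figure D5:**
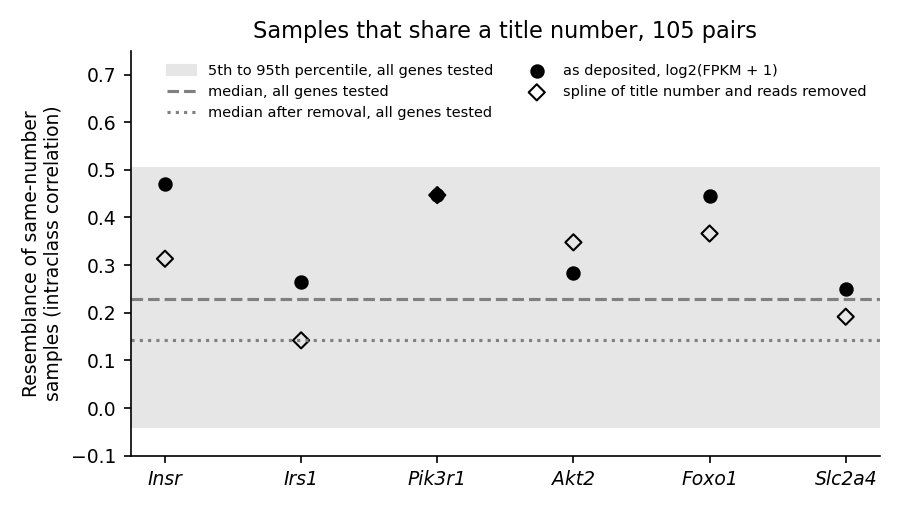
Intraclass correlation of each gene over all pairs of samples with the same title number, before (dots) and after (diamonds) removal of a spline of the title number and log2 reads. The grey band is the 5th to 95th percentile (-0.0398 to 0.503) and the dashed line the median (0.228) of the 16131 genes tested, both before removal, and the dotted line is their median after it (0.142). *Insr*, *Pik3r1* and *Foxo1* lie highest before removal, and after it *Irs1* (0.142) lies at the dotted line.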

How the data were processed

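RNA of adipose tissue was extracted with Trizol and sequenced as 75 bp single-end reads, per the labels' protocols. STAR, Picard, featureCounts and DESeq2 are named without versions, per the submitters' processing notes, and the genome build is not given in the sources used here. The deposited values were FPKM made by the authors. Going by the values, dividing whole reads by a gene length and 1 depth factor per sample gives each of them. Reads were recovered for all 18358 genes, with 100% of values whole within 0.001. On simulated data, reads of 4918 genes were recovered in full.

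Values were analysed as log2(FPKM + 1) for the 16131 genes with FPKM above 1 in at least 20% of samples, in 415 samples. There were 318 title numbers, with 186 samples and 105 pairs sharing one, and blocks of 39, 232 and 144 samples. Trends, blocks, title numbers, reads and co-variation were fitted to all genes with limma 3.58.1 in R 4.3.3 (Benjamini-Hochberg adjustment). In simulations of 16131 genes with 200 changed, limma found 100% of trends of 1 SD and 90.5% of slopes with an r of about 0.24. The simulated noise was independent between genes and between samples, unlike the data, so these shares do not give the power of the tests here. Correlations used 100000 permutations (scipy 1.17.1). Adjusted values in a family cover 21 relations. Intervals of r used Fisher's transformation. Samples of the same title number may not be independent, which can make p-values too small.

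Alternatives were a pseudocount of 0.1, no filter, quantile normalization, 1 sample per title number, covariates (reads, blocks, 5 principal components), a spline with 5 degrees of freedom, and values within blocks. Leaving out libraries under 3500000 reads, values within title numbers, trends within blocks, differences of slopes between blocks, slopes on depth and the promoter motifs were chosen after seeing the data.

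The members and lists were chosen with earlier results of these data known. Named genes were the 6 members and, by highest and lowest r, 2 genes each for *Slc2a4*. Symbols came with the list of identifiers, and the RefSeq table at hand has Ensembl identifiers for 0 of 47357 genes, so the pairing was not checked. For the same reason the other pathway genes and the cell type markers are not analysed here.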

Additional observations from a re-analysis of the deposited data

How the results depend on the processing

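The count of called pairs (9 of 15) stayed between 7 and 10 under every alternative but block 1, where 4 passed among 39 samples. The shares of all genes called changed too, so these counts stand against unlike backgrounds. With *Insr*, *Irs1*, *Pik3r1*, *Akt2*, *Foxo1* and *Slc2a4*, the shares in block 1 were 38.6%, 41.6%, 21.4%, 3.94%, 1.5% and 1.3%. Within title numbers, where 7 pairs passed, they were 36.1%, 18.2%, 14.6%, 42.5%, 10.6% and 15.9%. Trend counts over all genes were 9885, and 0 and 1053 within blocks 1 and 3, where 0 members passed in each. Quantile normalization gave 5 members with a trend and 5 with a block difference, against 3 each, with 59.8% and 51.9% of all genes called. The spline and log2 reads left 5012 genes (31.1%) differing between title numbers, against 9280. Relations to reads passed for 2 members within block 1, against 4, with 43.7% of all genes. Modes were met by 0 members without the shallow libraries, against 2; the cause of these changes was not tested.

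The sign changed in 14 single values that passed the test in all samples or under the alternative, and in 26 that passed in neither. Trends, per full range of ranks of all samples, were -0.21 for *Irs1* within block 3 and -0.64 for *Slc2a4* within block 1. After quantile normalization they were 0.064 for *Pik3r1* and 0.065 for *Akt2*. With that range set from 0 to 1, block 1 covers only 0 to 0.0907 and block 3 only 0.6554 to 1, so the changes inside them are smaller. Slopes on log2 reads were -0.054 for *Insr* and -0.25 for *Irs1* within block 3, -0.0090 and -0.091 without the shallow libraries, and 0.27 for *Pik3r1*, 0.29 for *Akt2* and 0.085 for *Slc2a4* after quantile normalization. Slopes between genes were -0.0033 for *Foxo1* on *Insr* within title numbers, and for *Slc2a4* on *Akt2* -0.083 with 5 principal components and -0.53 within block 1. Of the single values that kept their sign, 18 lost the call and 15 gained it. Low values of *Insr* and *Irs1* rest on fewer reads and are less precise.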
